A study of Mus musculus with 6 samples.

Results

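Adipocyte progenitors of white fat are recognised by proteins on their surface and by a few genes that mark their fate. A set of 10 such markers, *Cd24a*, *Ly6a*, *Cd34*, *Pdgfra*, *Pdgfrb*, *Dpp4*, *Pi16*, *Dlk1*, *Thy1* and *Zfp423*, was followed here among the 56884 genes of each library. The markers were chosen by name from what is known of this cell type, with the TPM of these same libraries in view (TPM is the abundance of a gene's transcripts, corrected for length, as a share of all transcripts of the library). The contrast of K382Q against K382R is therefore given for them as a description, without a test.

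The cells were an immortalized line from the stromal vascular fraction (SVF) of mouse subcutaneous white fat. They carried a retroviral pMXs-Puro vector for PPARγ2, the master transcription factor of adipocyte formation, and were selected with puromycin. In one group the lysine K382 of PPARγ2 was replaced by glutamine (K382Q), which resembles acetylated lysine, and in the other by arginine (K382R), which cannot be acetylated and keeps the positive charge. Both groups, with 3 biological replicates each, were sequenced at day 2 of beige differentiation, in a medium with the PPARγ agonist rosiglitazone (0.5 μM), the thyroid hormone T3 (1 nM), insulin (5 μg/mL), dexamethasone (2 μg/mL), indomethacin (125 μM) and isobutylmethylxanthine (500 μM). Aligned reads came to 5.95 to 7.50 Gb per library in K382Q and 6.53 to 8.15 Gb in K382R. Each group rests on overexpression in a cell line, and cells without a mutant PPARγ2 were not analysed here, so a difference places the mutants relative to each other only.

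In subcutaneous fat, stromal cells that carry DPP4 and PI16 lie in the interstitium and give rise to ICAM1-positive committed preadipocytes. Stromal progenitors as a whole carry PDGFRα, CD34 and SCA-1, the product of *Ly6a*, and CD24 separates early progenitors from later ones in mouse white fat. Zinc finger protein 423 (*Zfp423*) acts in the commitment of preadipocytes and maintains white adipocyte identity, and DLK1, also called PREF-1, inhibits differentiation.

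Of the 10 markers, 6 had a TPM of at least 0.5 in all 6 libraries (*Ly6a*, *Cd24a*, *Zfp423*, *Pdgfra*, *Pdgfrb* and *Thy1*). They passed the filter for the fit across genes, which asked for 0.5 TPM or more in 3 or more of the 6 libraries and left 15426 genes. The other 4 (*Cd34*, *Pi16*, *Dlk1* and *Dpp4*) did not pass. In all 6 markers above the filter, and in *Cd34* below it, each K382Q library lay under each K382R library. This pattern was found in 42.8% of all genes tested, and the opposite one, which no marker had, in 14.1%. The median log2 fold change of the 6 markers, K382Q minus K382R on the log2(TPM + 0.5) scale, was -0.82, beside -0.14 over all genes tested. Since the markers were chosen with this contrast known, nothing is read from these counts. In bulk RNA, fewer cells of a type and less RNA of a gene per cell cannot be told apart.

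**Figure D1:**
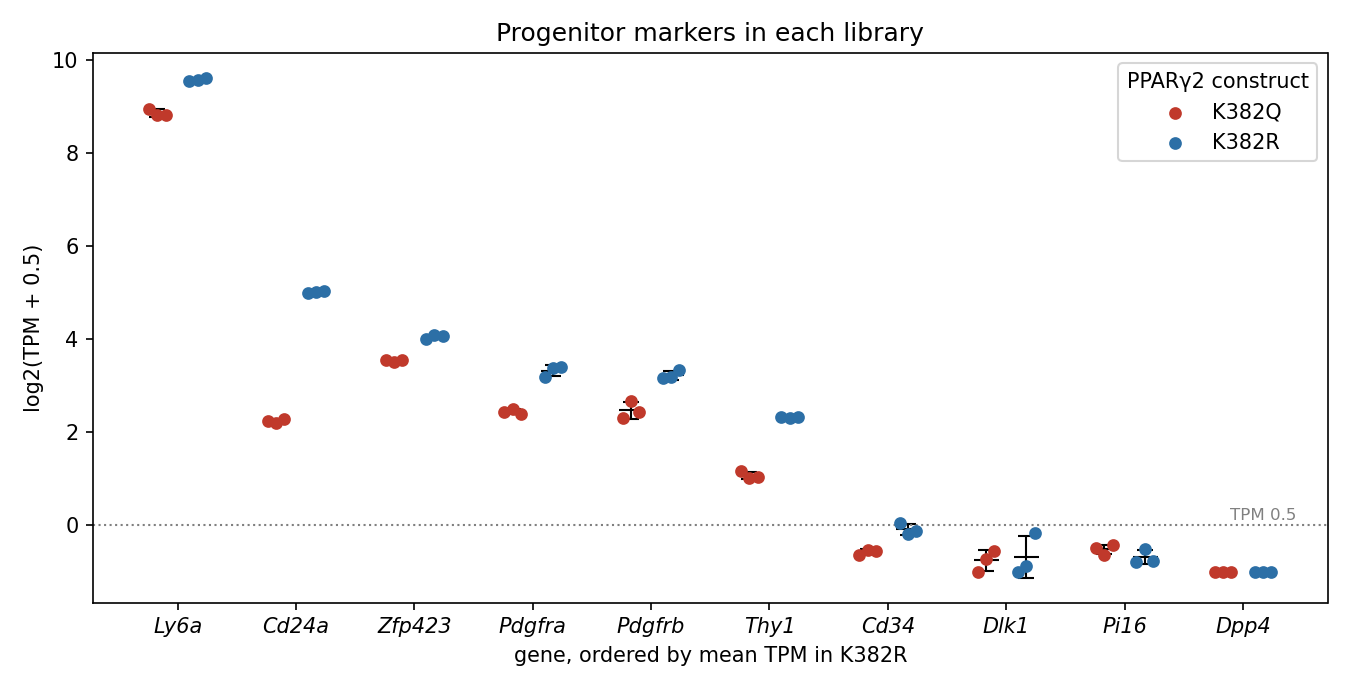
Level of each marker in each library, as log2(TPM + 0.5) on the vertical axis, with the genes ordered by their mean TPM in K382R; each point is 1 library, and the black bar is the mean ± SD of 3. The K382Q points lie under the K382R points from *Ly6a* to *Cd34*, while those of *Dlk1* and *Pi16* overlap and *Dpp4* is listed at 0 throughout.

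*Cd24a* had the widest gap of the 10. It encodes CD24, a small glycoprotein attached to the membrane by a lipid anchor (ENSMUSG00000047139.10, chromosome 10, 43454280 to 43460261 of GRCm39, plus strand, 2 exons in its canonical transcript). Its TPM was 4.24, 4.06 and 4.34 in PPARγ2 K382Q-overexpressing cells and 31.6, 31.9 and 32.5 in PPARγ2 K382R-overexpressing cells. The libraries within a group were nearly level, and the lowest K382R library was 7.28 times the highest K382Q library. The mean TPM was 4.21 ± 0.143 (SD, n = 3) against 32.0 ± 0.477 (SD, n = 3), a 7.59-fold ratio or 86.8% less in K382Q. On the log2(TPM + 0.5) scale the fold change was -2.79 (standard error 0.0573), and 4 of the 15426 genes tested had a lower one. Reads covered the gene to a mean depth of 3.76 to 4.51 per base in K382Q and of 29.4 to 36.5 in K382R.

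A near-identical copy of *Cd24a* exists on chromosome 14, within the gene *Hs6st3*. Stretches of at least 95% identity there covered 99.7% of the canonical *Cd24a* transcript of 1818 bases, the longest at 96.5% identity. The pseudogene annotated at this place, *Gm6212*, was listed at a TPM of 0 in all 6 libraries, and *Hs6st3* at 0.0377 or less. Reads that fit both places could have been counted at either, and how they were shared was not tested. The nearest tested gene on the side of lower coordinates, *Mtres1* at a distance of 37.3 kb, had a log2 fold change of 0.21 (adjusted p = 0.00474, limma), and on the other side *Qrsl1*, at 289.9 kb, had -0.12 (adjusted p = 0.169, limma).

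*Ly6a* was by far the most abundant marker. It encodes SCA-1, a lipid-anchored protein of the Ly6 family that is used to sort mouse stromal and haematopoietic progenitors (ENSMUSG00000075602.11, chromosome 15, 74866726 to 74869880 of GRCm39, minus strand, 3 exons). Its TPM was 498, 450 and 452 in PPARγ2 K382Q-overexpressing cells and 752, 764 and 786 in PPARγ2 K382R-overexpressing cells. The groups did not overlap, and the mean was 467 ± 26.9 (SD, n = 3) against 767 ± 17.6 (SD, n = 3), or 39.2% less in K382Q. The log2 fold change was -0.72 (standard error 0.0437). *Ly6a* alone held 94.4% of the summed TPM of the 10 markers in K382Q and 91.5% in K382R.

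*Ly6a* lies in a cluster of Ly6 genes, which encode related small surface proteins, and the nearest tested genes on both sides belong to it. *Ly6i*, at 11.4 kb, had a TPM of 0.820, 1.15 and 0.664 in K382Q and of 3.39, 2.98 and 3.59 in K382R, and *Ly6c1*, at 46.0 kb, had 210, 176 and 179 against 467, 423 and 449. Both fell, with log2 fold changes of -1.48 (adjusted p = 0.000232, limma) and -1.25 (adjusted p = 7.55e-06, limma). Of 14 other genes of the family that were listed, 6 were tested, 0 were higher and 4 were lower at an adjusted p under 0.05 over all genes tested, where 11.1% of all genes tested were higher and 36.9% lower. Their median log2 fold change was -0.83, and -0.424 with no filter. The other 2 that fell were *Lynx1* and *Ly6e*, with -0.70 and -0.60. *Ly6c2* and *Ly6h* did not pass, with adjusted p-values of 0.268 and 0.136 (limma). Without K382Q replicate 2, *Ly6h* passed as lower, with a log2 fold change of -0.775 (adjusted p = 0.0452, limma). Ly6 genes resemble each other, and 12.4% of the canonical *Ly6a* transcript had a match of 95.2% identity in *Gm28068*, which had a TPM of at most 0.151. Whether reads were shared between *Ly6a* and *Ly6i*, *Ly6c1* or *Ly6c2* was not tested, and their separate values are uncertain to that extent.

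*Thy1* encodes CD90, a lipid-anchored protein of fibroblasts, neurons and T cells that is a standard antigen of mesenchymal stromal cells (ENSMUSG00000032011.6, chromosome 9, 43954681 to 43959876 of GRCm39, plus strand, 4 exons). Its TPM was 1.73, 1.52 and 1.56 in PPARγ2 K382Q-overexpressing cells and 4.48, 4.46 and 4.55 in PPARγ2 K382R-overexpressing cells. Among the 6 markers above the filter it had the lowest level in both groups and, after *Cd24a*, the next widest gap. The mean was 1.61 ± 0.112 (SD, n = 3) against 4.50 ± 0.0460 (SD, n = 3). On the log2 scale the difference was -1.25 (standard error 0.105). *Cd24a* and *Thy1* were the 2 markers lower by more than 2-fold on this scale, as were 2.72% of all genes tested, and the other 4 differed by less than 2-fold. With FPKM in place of TPM, *Thy1* had -0.95, just under 2-fold. The neighbour *Nectin1*, at 210.7 kb, had a log2 fold change of -0.75 (adjusted p = 0.000277, limma).

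*Cd34* encodes a sialomucin of haematopoietic and stromal progenitors and of endothelium (ENSMUSG00000016494.10, chromosome 1, 194621127 to 194643587 of GRCm39, plus strand, 8 exons). Its TPM was 0.144, 0.192 and 0.177 in PPARγ2 K382Q-overexpressing cells and 0.525, 0.376 and 0.420 in PPARγ2 K382R-overexpressing cells. Although the groups did not overlap, a single library reached 0.5 and the mean depth was at most 0.548 reads per base. The ratio of the mean TPM was 2.58, while the log2 fold change with no filter on low values was -0.48 (standard error 0.0933), since the pseudocount of 0.5 exceeds most of these values.

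The receptors of platelet-derived growth factor, *Pdgfra* and *Pdgfrb*, are tyrosine kinases that mark fibroblast-like stromal cells and, for *Pdgfrb*, the cells around vessels. *Pdgfra* (ENSMUSG00000029231.16, chromosome 5, 75312953 to 75358876 of GRCm39, plus strand, 23 exons) had a TPM of 4.89, 5.15 and 4.76 in PPARγ2 K382Q-overexpressing cells and of 8.60, 9.88 and 10.1 in PPARγ2 K382R-overexpressing cells. *Pdgfrb* (ENSMUSG00000024620.12, chromosome 18, 61178222 to 61218133, plus strand, 23 exons) had 4.43, 5.88 and 4.90 against 8.42, 8.57 and 9.57. For both receptors every K382Q library was below every K382R library. The log2 fold changes were -0.88 (standard error 0.0870) and -0.75 (standard error 0.111). The ratio of *Pdgfra* to *Pdgfrb* was 0.983 ± 0.113 (SD, n = 3) in K382Q and 1.08 ± 0.0681 (SD, n = 3) in K382R, with overlapping ranges.

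The ligands of these receptors were measured as well. *Pdgfc*, which acts through PDGFRα, had a TPM of 7.73, 8.13 and 8.81 in K382Q and of 16.4, 15.1 and 16.01 in K382R, and fell with a log2 fold change of -0.90 (adjusted p = 3.73e-05, limma). *Pdgfa* had 11.2, 16.4 and 10.4 against 16.1, 17.5 and 14.9, with overlapping groups and a log2 fold change of -0.37 (adjusted p = 0.0925, limma). It passed without K382Q replicate 2, its highest K382Q library, with a log2 fold change of -0.56 (adjusted p = 0.00241, limma). With 2 ligands tested, and 36.9% of all genes tested lower, nothing is read from their count. *Pdgfb* and *Pdgfd* stayed under the filter, with a TPM of at most 0.378 and 0.236.

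*Zfp423* was the second most abundant marker in K382Q and had the smallest gap of the 6 (ENSMUSG00000045333.16, chromosome 8, 88388438 to 88686223 of GRCm39, minus strand, 8 exons). Its TPM was 11.3, 11.0 and 11.3 in PPARγ2 K382Q-overexpressing cells and 15.5, 16.5 and 16.2 in PPARγ2 K382R-overexpressing cells. The mean was 11.2 ± 0.191 (SD, n = 3) against 16.1 ± 0.510 (SD, n = 3), or 30.4% less, and the log2 fold change was -0.50 (standard error 0.0551). *Zfp521*, a related zinc finger gene that restrains adipogenesis, was near the filter. It had a TPM of 0.895, 0.688 and 1.25 against 1.52, 1.72 and 1.65, and fell with a log2 fold change of -0.58 (adjusted p = 0.0301, limma). This call was lost with no filter, median-ratio scaling and quantile normalization, with adjusted p-values of 0.0892, 0.0729 and 0.0593 (limma). It was also lost without K382Q replicate 1 or 2 or K382R replicate 1, 2 or 3 (adjusted p = 0.0567 to 0.0871, limma). *Ebf2*, a factor of brown and beige preadipocytes, had 24.5, 20.3 and 19.9 against 18.4, 20.9 and 23.9, with overlapping groups and a log2 fold change of 0.04 (adjusted p = 0.807, limma). *Prdm16*, which drives the brown and beige programme, stayed under the filter in every library, at 0.0564 to 0.138 against 0.0442 to 0.109.

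*Dlk1*, *Pi16* and *Dpp4* were at the limit of what these libraries measured. *Dlk1* (ENSMUSG00000040856.18, chromosome 12, 109418749 to 109429262 of GRCm39, plus strand, 5 exons) was listed at a TPM of 0, 0.108 and 0.181 in PPARγ2 K382Q-overexpressing cells and of 0, 0.0459 and 0.390 in PPARγ2 K382R-overexpressing cells. *Pi16*, which encodes a secreted or membrane-bound peptidase inhibitor (ENSMUSG00000024011.18, chromosome 17, 29536654 to 29549567, plus strand, 7 exons), had 0.207, 0.145 and 0.242 against 0.0796, 0.200 and 0.0858. The groups overlapped for both genes, and no difference was detectable at this depth. *Dpp4*, which encodes a dipeptidyl peptidase of the cell surface (ENSMUSG00000035000.9, chromosome 2, 62160417 to 62242575, minus strand, 26 exons), was listed at 0 in all 6 libraries. The defining pair of interstitial progenitors was thus absent or nearly so from both groups, and the label of an interstitial progenitor is not used for these cells.

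The promoters of 3 markers at different levels are shown: *Pdgfra*, with a TPM of several units, *Cd34*, near the filter, and *Dpp4*, listed at 0. The sequences are those of RefSeq (a table of build GRCm38.p6 with windows for 6 of the 10 markers), were found once by exact match in GRCm39, and end before the first exon annotated there in GENCODE. They are written 5′ to 3′ along the gene, and capitals mark the single motif match.
Pdgfra, chr5:75312662-75312833, plus strand: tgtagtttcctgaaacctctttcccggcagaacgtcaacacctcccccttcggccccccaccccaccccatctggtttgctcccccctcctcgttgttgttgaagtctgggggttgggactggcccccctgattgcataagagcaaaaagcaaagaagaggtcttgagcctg
Cd34, chr1:194620879-194621028, plus strand: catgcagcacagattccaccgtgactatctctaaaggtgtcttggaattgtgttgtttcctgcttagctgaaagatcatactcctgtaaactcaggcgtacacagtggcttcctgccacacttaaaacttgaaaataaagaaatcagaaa
Dpp4, chr2:62242577-62242825, minus strand: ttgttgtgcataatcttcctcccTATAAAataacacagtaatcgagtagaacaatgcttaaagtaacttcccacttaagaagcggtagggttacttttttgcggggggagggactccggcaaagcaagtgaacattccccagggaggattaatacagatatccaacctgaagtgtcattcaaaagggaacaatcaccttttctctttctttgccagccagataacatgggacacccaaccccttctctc

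The 250 bases before the RefSeq start were searched on both strands for AGGTCA (the half-site of nuclear receptors such as PPARγ), for a direct repeat of AGGTCA with 1 base between (the element bound by PPARγ with RXR, which holds the half-site), for TTCNNNGAA (the core of STAT elements), for TATAAA and for GGGCGG. Over 32851 such windows of all genes in the table these were found in 14.0%, 0.0335%, 7.02%, 12.4% and 32.7%. The windows of *Pdgfra*, *Cd34*, *Pi16* and *Dlk1* held none of the 5. That of *Dpp4* held TATAAA, from 227 to 222 bases before the start. *Zfp423* has 2 windows in the table. One held GGGCGG at 2 places, and the other held GGGCGG once and AGGTCA from 34 to 29 bases before its start. A match is a description of the letters, and a window without one says nothing about the factor.

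The order of the levels, which TPM makes comparable between genes of different length, differed between the groups. In K382R it ran from *Ly6a* through *Cd24a*, *Zfp423*, *Pdgfra*, *Pdgfrb* and *Thy1* to *Cd34*, and in K382Q from *Ly6a* through *Zfp423*, *Pdgfrb*, *Pdgfra* and *Cd24a* to *Thy1*. *Cd24a* stood at rank 2 in K382R and at rank 5 in K382Q, while the other 5 kept their order apart from *Pdgfra* and *Pdgfrb*, whose ranges overlapped in both groups. Below *Thy1*, the ranges of *Pi16*, *Cd34* and *Dlk1* overlapped from one to the next in K382Q, and those of *Cd34*, *Dlk1* and *Pi16* in K382R. The ratio of *Cd24a* to *Zfp423* was 0.377 ± 0.00741 (SD, n = 3) in K382Q and 1.99 ± 0.0521 (SD, n = 3) in K382R. The ratio of *Cd24a* to *Thy1* was 2.63 ± 0.166 (SD, n = 3) against 7.11 ± 0.0666 (SD, n = 3).

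**Figure D2:**
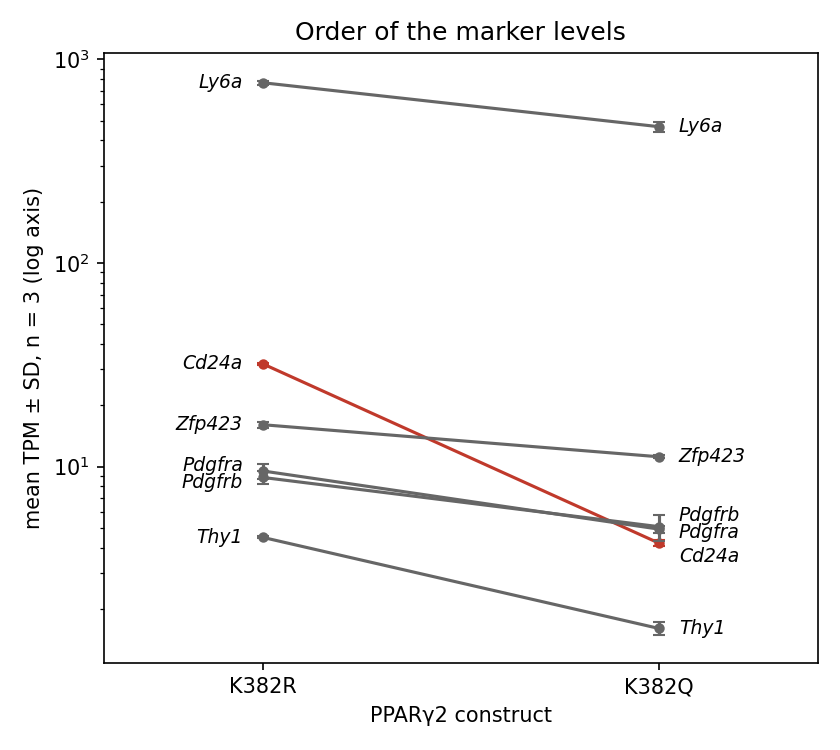
Mean TPM ± SD of 3 libraries for the 6 markers above the filter in K382R (left) and K382Q (right), on a log axis. The red line of *Cd24a* drops from 32.0 to 4.21 and crosses *Zfp423* and both PDGF receptors, while the grey lines of the others run downward without leaving their order beyond the pair of receptors.

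By the size of the log2 fold change, the markers ran from *Cd24a* (-2.79) and *Thy1* (-1.25) through *Pdgfra* (-0.88), *Pdgfrb* (-0.75) and *Ly6a* (-0.72) to *Zfp423* (-0.50). Over 16 other settings of the processing, the log2 fold change of *Cd24a* lay between -2.90 and -2.53, that of *Thy1* between -1.43 and -0.95, and that of *Zfp423* between -0.53 and -0.33. All 96 values of the 6 markers under these settings were below 0.

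**Figure D3:**
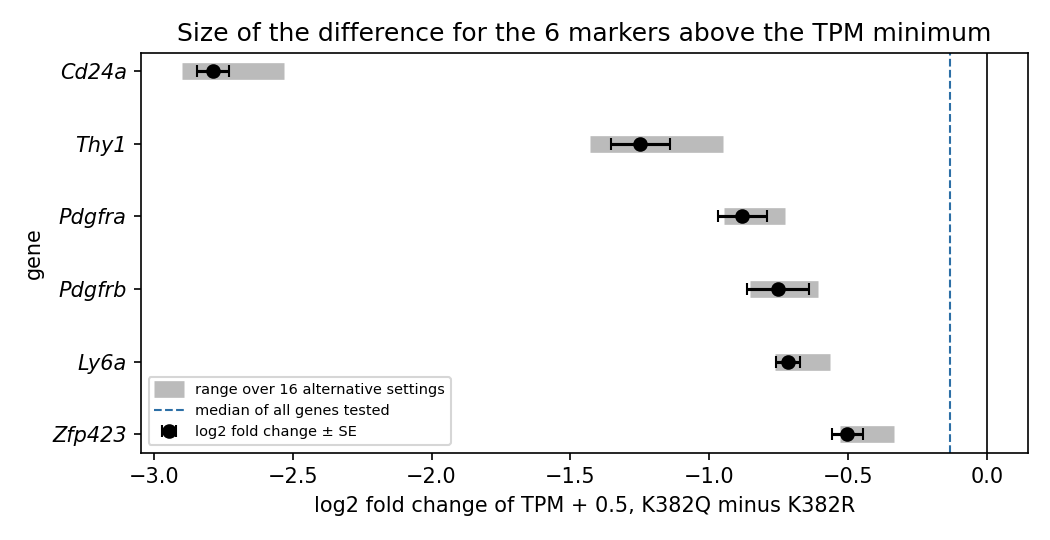
Log2 fold change of the 6 markers above the filter, K382Q minus K382R on the log2(TPM + 0.5) scale, as points with their standard errors; grey bands span 16 other settings and the dashed line is the median of all genes tested, -0.14. *Cd24a* stands apart at -2.79, and the other markers lie between -1.25 and -0.50.

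The tested genes nearest to the remaining markers are given for position only. Beside *Cd34*, *Plxna2* and *Cr1l* had log2 fold changes of 0.03 and -0.08, and beside *Pdgfra*, *Chic2* and *Srd5a3* had -0.26 and -0.15. Both neighbours of *Pdgfrb* fell, *Tcof1* with -0.70 and *Hmgxb3* with -0.28 (adjusted p = 1.39e-05 and 0.00773, limma). Those of *Dpp4* fell as well, *Psmd14* with -0.16 and *Ifih1*, an RNA sensor of the interferon response, with -1.05 (adjusted p = 0.0131 and 4.25e-06, limma). None of the others passed, namely *BC004004* (0.11) and *Mtch1* (0.14) beside *Pi16*, *Wdr25* (0.10) and *Gm3379* (0.23) beside *Dlk1*, *Gm49380* (-0.63) beside *Thy1*, and *Rps13-ps1* (0.32) and *Cnep1r1* (-0.13) beside *Zfp423*. Neither did the pairs beside *Cd34* and *Pdgfra*. The 6 annotated genes that overlap a marker, *Gm16897*, *Mir7025*, *Gm42802*, *Gm42803*, *Gm13561* and *Gm46603*, had a TPM of at most 0.244.

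Other genes of the same cell populations were taken from lists that were also written with earlier results known, so their counts are read only against all genes tested, of which 36.9% were lower and 11.1% higher. Of 17 other genes of DPP4- and PI16-positive interstitial progenitors, 11 were tested, 9 were lower and 1 was higher, with a median log2 fold change of -0.75 beside -0.14 over all genes tested. The lower ones included *Anxa3*, an annexin, with a TPM of 32.4, 33.5 and 32.3 against 109, 103 and 117 (log2 fold change -1.73, adjusted p = 4.51e-07, limma). *Cd248*, which encodes the stromal sialomucin endosialin, had 4.54, 5.21 and 3.99 against 10.7, 11.99 and 11.5 (log2 fold change -1.23, adjusted p = 5.41e-05, limma). *Ly6c1*, described above, belongs to this list too. *Limch1* rose, with a log2 fold change of 0.96 (adjusted p = 0.0065, limma). The median of the list was -0.631 with FPKM, -0.603 with median-ratio scaling, -0.588 with quantile normalization and -0.541 with no filter. That of all genes was then -0.0515, 0.0032, -0.0048 and -0.0497. The lower calls numbered 8 to 9 over the 16 alternatives. *Creb5*, a lower call at a TPM of 0.320 to 0.502 against 0.756 to 0.904, lost it with each library left out in turn (adjusted p = 0.0524 to 0.115, limma). *Wnt2* and *Bmp7*, which encode secreted signals of this population, were listed at 0 in every library.

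Genes of committed preadipocytes went both ways. Of 20, 18 were tested, 5 were higher and 9 lower, with a median of -0.21 (all genes tested: 11.1% higher, 36.9% lower). The lower ones include *Pparg*, whose TPM can hold vector transcripts. The median was -0.126 with FPKM and -0.0578 with median-ratio scaling, and the higher calls numbered 3 with no filter and with quantile normalization. Of all genes, 1435 of 29522 were higher with no filter and 2954 of 15426 with quantile normalization. *Icam1*, the adhesion molecule that defines these cells, had a TPM of 0.518, 0.656 and 0.496 in K382Q and of 2.39, 1.78 and 2.75 in K382R (log2 fold change -1.40, adjusted p = 0.000458, limma). *Sdc1* and *Vcam1*, a syndecan and another adhesion molecule, fell with log2 fold changes of -0.997 and -0.917. *Hsd11b1*, the enzyme that activates glucocorticoids, rose with 1.17 and the fatty acid carriers *Cd36* and *Fabp4* with 0.43 and 0.34. The call of *Fabp4* was lost with no filter and with quantile normalization, where its adjusted p-values were 0.272 and 1 (limma). Of 12 genes of the CD142-positive stromal population, 7 were tested, 2 were higher and 3 lower, with a median of -0.09, against the same shares of all genes. This median was -0.391 with a filter of 1 TPM, 0.0507 with no filter, and -0.143 to -0.0275 with each library left out in turn. *F3*, which encodes CD142, had overlapping groups, with a TPM of 12.7 to 16.1 against 12.1 to 16.6 (log2 fold change 0.05, adjusted p = 0.780, limma). *Bgn*, a matrix proteoglycan, fell with -1.51, *Cygb* with -0.87 and *Abcg1* with -0.39, and *Igfbp3* rose with 0.86. The other higher call, *Gdf10* with 0.66, was lost without K382Q replicate 1, 2 or 3 or K382R replicate 1 or 2 (adjusted p = 0.0517 to 0.106, limma), and *Gdf10* did not reach a filter of 1 TPM. With no filter neither gene passed, with adjusted p-values of 0.0527 for *Gdf10* and 0.0579 for *Igfbp3* (limma).

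Among 18 other surface antigens of mesenchymal stromal cells, 13 were tested, 1 was higher and 9 were lower, with a median of -0.34 (all genes tested: 11.1% higher, 36.9% lower). *Cd44*, the hyaluronan receptor, had a TPM of 11.8, 13.9 and 12.3 against 28.1, 26.1 and 26.2 (log2 fold change -1.05, adjusted p = 1.87e-05, limma). The integrin *Itga5* and the tetraspanin *Cd9* fell with -0.57 and -0.56, and *Cd47* rose with 0.12. Among the lower calls, *Eng* passed the filter only through K382R, with a TPM of 0.253 to 0.401 against 0.604 to 1.21. Its call was lost with no filter, median-ratio scaling and quantile normalization (adjusted p = 0.0629, 0.0652 and 0.0712, limma), among others. That of *Alcam* was lost with the same settings (adjusted p = 0.132, 0.212 and 0.218, limma), among others. With median-ratio scaling and quantile normalization the lower calls of this list numbered 5, where 3153 and 3241 of the 15426 genes tested were lower. The median of the list was then -0.198 and -0.234, beside 0.0032 and -0.0048 over all genes tested. Of 28 transcriptional regulators of preadipocyte commitment, 26 were tested, 2 were higher and 13 lower, against the same shares of all genes, with a median of -0.19, close to that of all genes tested. *Pparg*, whose TPM can hold vector transcripts, is counted among the lower ones of this list too. *Cebpa*, *Cebpd* and *Stat5a*, factors that promote adipogenesis, fell with -0.81, -0.63 and -0.61, while *Sox9*, which holds cells in the progenitor state, rose with 0.60 and *Nr2f2* with 0.24. The 13 lower calls became 8 with FPKM or with no filter, 7 with median-ratio scaling and 6 with quantile normalization, and with these scalings the median was -0.0391 and -0.0342. The call of *Nr2f2* was lost without K382Q replicate 1, K382Q replicate 3, K382R replicate 1 or K382R replicate 2, with adjusted p-values of 0.055 to 0.0608 (limma).

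**Figure D4:**
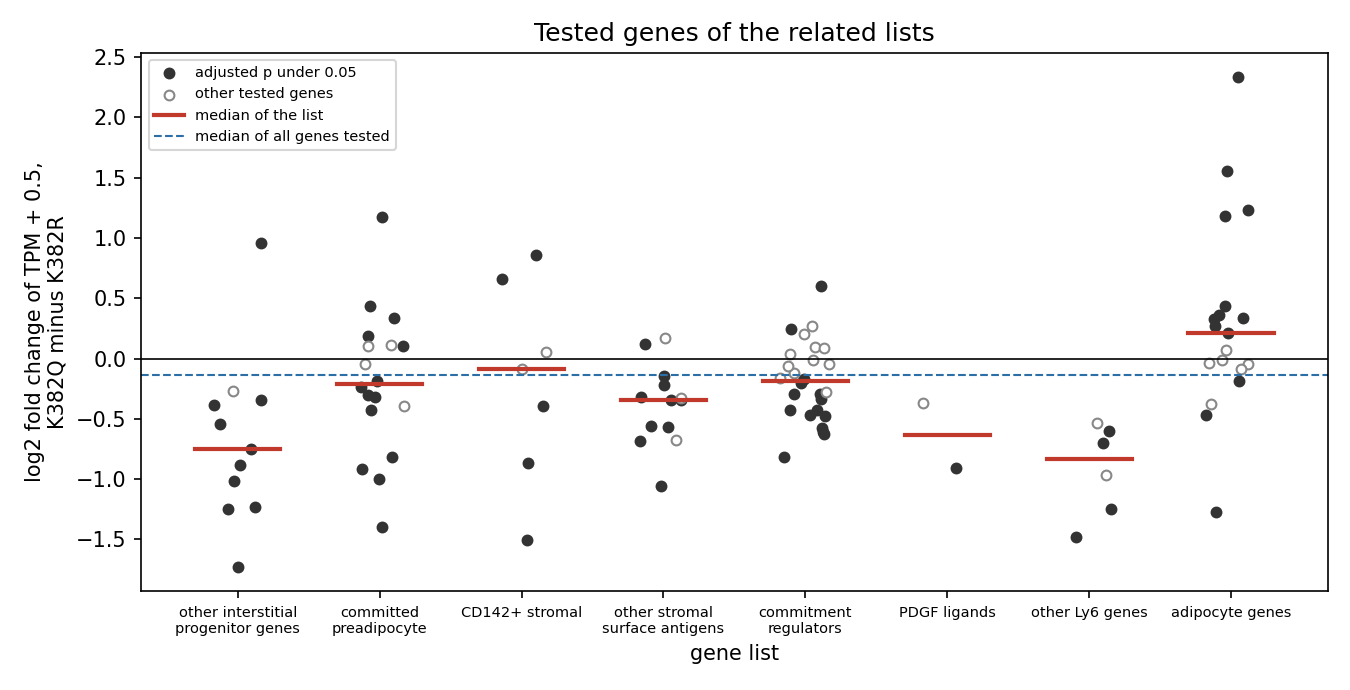
Log2 fold change of every tested gene of 8 related lists, K382Q minus K382R on the log2(TPM + 0.5) scale; filled points passed an adjusted p of 0.05 (limma), red bars are list medians and the dashed line is the median of all genes tested, -0.14. The medians of the other interstitial progenitor genes (-0.75, and -0.541 with no filter), the 2 tested PDGF ligands (-0.64, and -0.345 with no filter) and the other Ly6 genes (-0.83, and -0.424 with no filter) lie lowest, and that of the adipocyte genes (0.22) lies above 0.

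Adipocyte genes and the total *Pparg* transcript also differed between the groups. Of 20 genes of lipid-storing adipocytes, 19 were tested, 10 were higher and 3 lower, with a median of 0.22, where 11.1% of all genes tested were higher and 36.9% lower. This median was 0.0707 with quantile normalization and 0.366 with median-ratio scaling. *Thrsp*, a regulator of lipid synthesis, had a TPM of 13.0, 14.9 and 15.5 in K382Q and of 2.55, 2.04 and 2.87 in K382R (log2 fold change 2.33, adjusted p = 5.88e-06, limma). *Adrb3*, the β3-adrenergic receptor, and *Cfd*, or adipsin, rose with 1.55 and 1.23. *Adipoq*, the gene of adiponectin, had 149, 147 and 148 against 383, 346 and 351 (log2 fold change -1.28, adjusted p = 7.63e-07, limma), and *Acsl1* and *Lpl* also fell, with -0.47 and -0.19, the latter not with median-ratio scaling (-0.0331, adjusted p = 0.405, limma). *Pparg*, whose TPM can hold vector transcripts, had 1333, 1164 and 1104 against 1590, 1632 and 1612 (log2 fold change -0.43, adjusted p = 0.000977, limma). The part of these levels in the marker values was not tested.

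Markers of other cells of fat were low apart from *Krt19*, *Mcam* and a few others. Of 10 leukocyte markers, 2 were tested and neither passed, *Ptprc* (CD45) was listed at 0 in 5 libraries and at 0.0129 in 1, and the summed TPM was 3.68 to 4.89 in K382Q and 4.17 to 6.004 in K382R, most of it *Cd68*. Without K382R replicate 1, *Fcer1g* passed, with a log2 fold change of -1.11 (adjusted p = 0.0362, limma). Of 8 endothelial markers, 1 was tested and did not pass, *Pecam1*, at a TPM of 1.4996 to 2.08 against 1.4968 to 1.57, and the sum was 1.68 to 2.24 against 1.77 to 1.87. With no filter *Kdr* passed, with -0.28 (adjusted p = 0.0219, limma). *Cdh5* had at most 0.0903 and *Emcn* was listed at 0 in all. Of 8 markers of pericytes and vascular smooth muscle, 3 were tested and 1 fell, near the 36.9% of all genes tested, *Mcam*, with -1.12 (adjusted p = 7.21e-05, limma), and the sum was 12.1 to 14.1 against 20.9 to 25.1, while *Rgs5*, *Kcnj8* and *Abcc9* were at or near 0. *Notch3* was lower as well without K382Q replicate 1, with no trend and with array weights (log2 fold changes of -0.38, -0.32 and -0.33), and *Cspg4* was higher with median-ratio scaling (0.57, adjusted p = 0.042, limma). Of 8 markers of mesothelium and Schwann cells, 2 were tested and both were lower, where 36.9% of all genes tested were, *Krt19* with a log2 fold change of -0.12 (0.0301 with median-ratio scaling) and *Msln* with -1.56, and *Wt1* and *Sox10* were listed at 0. *Msln* passed the filter only through K382R, with a TPM of 0.115 to 0.339 in K382Q against 1.42 to 2.16. The summed TPM of the list was 375 to 399.1 against 416 to 428, nearly all of it *Krt19*, a keratin, with a mean of 387 in K382Q and 421 in K382R. The call of *Krt19* was lost without K382R replicate 2 or K382R replicate 3, with adjusted p-values of 0.0559 and 0.0577 (limma), and also with FPKM (0.389), quantile normalization (0.172), no trend (0.0674) and median-ratio scaling (0.564). *Mcam* moved in the same direction as *Pdgfrb*, which also marks cells around vessels, and its part in that difference was not tested.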

How the data were processed

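RNA of 6 cultures (3 per mutant) was sequenced as paired reads. Per the study's methods, TrimGalore trimmed the reads, HISAT2 aligned them to GRCm39 and StringTie quantified the genes. The annotation release is not given in the sources used here. The deposited coverage is a gene's average number of reads over each base. The deposited FPKM is scaled by the authors to the aligned bases of the library, and the deposited TPM to a fixed total, so it gives shares and not amounts. Counts were not analysed here, and coverage divided by FPKM, in genes with 1 transcript, gave the aligned length of each library. It was 5.95 to 7.50 Gb in K382Q and 6.53 to 8.15 Gb in K382R, with 22663 to 23837 genes above 0. GENCODE M39 held 99.0% of the gene IDs.

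limma 3.58.1 in R 4.3.3 was fitted to log2(TPM + 0.5) of both groups, with an intensity trend and Benjamini-Hochberg adjustment over the 15426 genes that reached 0.5 TPM in 3 or more of 6 libraries. The pseudocount understates fold changes of low genes. P-values set the difference between the groups against the spread between the 3 cultures of a group, which limma draws toward that of genes at a similar level. Whether the cultures of a group came from separate transductions is not given in the sources used here. If they did not, the construct and the transduced line cannot be told apart. No pair of libraries held the same values, and the first principal component (61.3% of the variance) separated the groups. Copies of the canonical transcripts (at least 95% identity over 150 bases) were searched in GRCm39 with BLAST+ 2.17.0, and figures were drawn with matplotlib 3.10.9. The fit was also run on simulated data, and no result of that run is used here.

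The members and lists were chosen with earlier results of these data known. Named were all 10 markers, the PDGF ligands, *Zfp521*, *Ebf2*, *Prdm16*, *Pparg*, *Ptprc* and *Pecam1*, tested neighbours of a marker, and per list up to 3 of the largest rises and 3 of the largest falls at an adjusted p under 0.05 and a mean TPM of at least 1. Others (*F3*, *Wnt2*, *Bmp7*, *Creb5*, *Eng*, *Alcam*, *Ly6e*, *Ly6c2*, *Ly6h*, *Cd68*, *Fcer1g*, *Gdf10*, *Notch3*, *Cspg4*, *Cdh5*, *Kdr*, *Emcn*, *Rgs5*, *Kcnj8*, *Abcc9*, *Msln*, *Wt1*, *Sox10*) and those named with the replicate block were named after their values were seen. As alternatives, the pseudocount was set to 1 or 0.1, the filter was dropped or raised to 1 TPM, FPKM replaced TPM, median-ratio scaling or quantile normalization was applied, the trend was dropped, array weights were added, replicate numbers entered as a block, or 1 library was left out.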

Additional observations from a re-analysis of the deposited data

How the results depend on the processing

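The 6 markers above the filter kept their direction in all 16 alternatives. Their median log2 fold change of -0.817 became -0.681 with FPKM and -0.676 with median-ratio scaling, and lay between -0.883 and -0.77 with each library left out in turn. The scalings moved the balance of all genes. Against 5698 lower and 1717 higher genes, median-ratio scaling gave 3153 and 3057 and quantile normalization 3241 and 2954, while the median of all genes went from -0.14 to 0.0032 and -0.0048. With each library left out, 4939 to 5511 genes were lower and 1443 to 1546 higher. The median of the CD142 list was 0.0507 and that of the mesothelium and Schwann list 0.0631 with no filter, and *Krt19* had 0.0301 with median-ratio scaling. The cause was not tested. Of 34 genes named as the largest rises or falls of their lists, 29 kept their call and direction in every alternative. *Zfp521*, *Gdf10*, *Creb5*, *Eng* and *Alcam*, named on other grounds, were not among the 34, and each lost its call in several alternatives. Depth limits *Cd34*, *Pi16*, *Dlk1* and *Dpp4*, whose mean coverage was under 1 read per base. Samples with the same replicate number did not deviate together (correlations of -0.018, 0.051 and 0.022), and with the replicate block 5387 genes were lower, 1600 higher and the markers' median was -0.817. Over all lists the block lost 7 calls (6 lower, 1 higher) and gained 4. The higher call lost was that of *Gdf10*, and gained were *Pdgfa*, *Ly6c2* and *Klf4* as lower and *Cspg4* as higher.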
